A study of Mus musculus with 5 samples.

Results

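The cells described here are 2347 B cells, the antibody-producing lymphocytes of the spleen, found among 32240 kept cells (7.28%) of 5 single-cell libraries made from cells sorted for leukaemia markers. A kept cell had at least 500 genes, at least 1000 unique molecular identifiers (UMIs, each a counted messenger RNA molecule) and no more than 10% mitochondrial UMIs. A B cell had UMIs of at least 2 of Cd79a, Cd79b, Ms4a1 and Ebf1, with a sum of at least 3. It also had fewer than 5 UMIs of the plasma cell gene Jchain, fewer than 2 of Cd3d, Cd3e and Cd3g, fewer than 10 per 10000 of C1qa, C1qb and C1qc, and fewer than 5 per 10000 of Cpa3, Ms4a2 and Fcer1a. The cells were thus chosen by the measured UMIs of these 14 genes, and no test of them is given.

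C57BL/6 mice carried CMM cells, an inv(16) acute myeloid leukaemia of the mouse that expresses green fluorescent protein (GFP), given by vein. Once about 1% of blood cells were GFP-positive, the mice received 3 intravenous doses, every other day, of PBS or of CpG-STAT3dODN. This agent joins a decoy oligonucleotide that binds the transcription factor STAT3 to a CpG DNA ligand of TLR9, a receptor of endosomes. GFP-positive, c-Kit-positive spleen cells were sorted and their RNA was counted with 10x 3' chemistry in 1 PBS library (n = 1) and 4 Decoy libraries (n = 4, named Decoy 2, 3, 5 and 6). All groups carried the leukaemia, and no leukaemia-free spleen is analysed here. The labels give neither the age of the mice nor whether libraries are separate animals. All p-values here measure the spread between libraries, which may be technical. With 1 PBS library, its spread was assumed to equal that of the Decoy libraries.

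B cells read antigen through a membrane immunoglobulin that signals through CD79A and CD79B. Newly formed cells leave the bone marrow as transitional cells, and in the spleen become follicular cells, rich in surface IgD and CD23, or marginal zone cells, rich in CD21 and CD1d. B cells express TLR9, and CpG DNA is a known B cell stimulus. The constant genes of IgM, IgD and the IgG classes lie in a row on 1 chromosome, and a switch to IgG is preceded by transcription of the unrearranged IgG gene.

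A UMI of the sorted marker Kit was found in few B cells. Kit, which encodes c-Kit, had a UMI in 5 of 201, 2 of 138, 1 of 362, 11 of 1188 and 5 of 458 B cells in PBS and Decoy 2, 3, 5 and 6. In the mast-gene cells, meaning the cells with at least 5 UMIs of Cpa3, Ms4a2 and Fcer1a per 10000, Kit had a UMI in 66.5%, 69.4%, 60%, 15.4% and 56.1%. These cells numbered 14498 in PBS, against 4811, 402, 13 and 1406 for Decoy 2, 3, 5 and 6. Their median depth was 32005, 37264, 31422, 11395 and 28222.5 UMIs, against 4000, 8006.5, 9129.5, 7631 and 6188 UMIs in B cells. The Kit shares were not thinned, so part of the gap can come from depth. The 13 of Decoy 5 were unlike the others, with Xist, Bex4 and Tnni3 at 0, and their values are no measure of leukaemic cells. The Y-linked genes Ddx3y, Eif2s3y, Kdm5d and Uty summed to 125, 120, 179, 168 and 176 CPM (UMIs scaled to a common library size, as counts-per-million values) in the B cells, and to 0.83, 1.09, 10.9, 142 and 7.68 CPM in the mast-gene cells. Xist, transcribed from the inactive X chromosome, was at 991, 892, 1001, 0 and 999 CPM in the mast-gene cells and at 312, 31.2, 1.66, 0 and 8.42 CPM in the B cells. Y-linked RNA was thus higher in B cells than in mast-gene cells in every library, and Xist lower in every library but Decoy 5, where both were at 0.

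The B cell share was above the PBS value in each Decoy library, and the difference did not pass the test over 5 libraries. Their number was 201 of 17219 kept cells in PBS (1.17%, 95% Clopper-Pearson interval 1.01% to 1.34%). It was 138 of 6252 in Decoy 2 (2.21%), 362 of 1941 in Decoy 3 (18.7%), 1188 of 3607 in Decoy 5 (32.9%) and 458 of 3221 in Decoy 6 (14.2%). Decoy 2 lay close to PBS and the other libraries far above it. The Decoy mean was 17.0% ± 12.7 (SD, n = 4), 15.8 percentage points above PBS (two-sided exact permutation test over libraries, p = 0.4, smallest possible p = 0.2). Without Decoy 5 the difference was 10.5 points. With the mast-gene cells left out of the denominator the shares were 7.39% in PBS against 9.58, 23.5, 33.1 and 25.2% in Decoy 2, 3, 5 and 6 (difference 15.5 points, exact permutation p = 0.4). A share depends on the sort and on how many leukaemic cells were present, and more B cells and fewer other cells cannot be told apart.

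**Figure D1:**
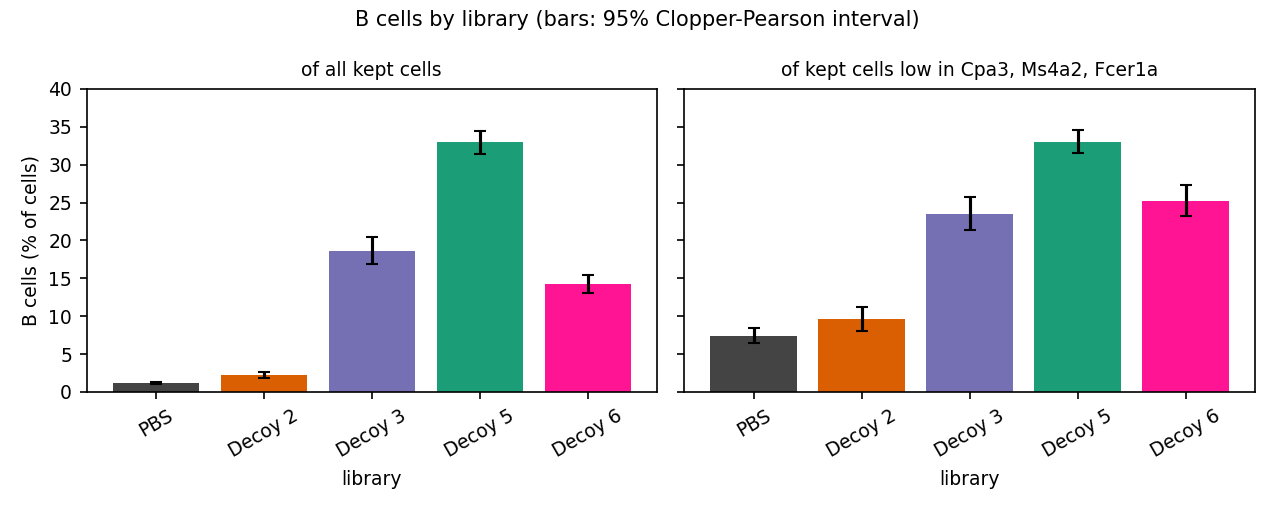
B cells as a percentage of all kept cells (left) and of kept cells outside the mast-gene cells (right) in each library, with 95% Clopper-Pearson intervals that cover counting error only. PBS is at 1.17% and 7.39%, and the Decoy libraries lie above it in both panels, Decoy 2 nearest.

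All 4 marker genes had a UMI in 93.5%, 97.1%, 93.4%, 95.7% and 94.5% of B cells. The median depth was 4000 UMIs per B cell in PBS, against 8006.5, 9129.5, 7631 and 6188 for Decoy 2, 3, 5 and 6, so shares of cells with a UMI are given after each cell was thinned to 2000 UMIs. At the edge of the rule, cells with 2 marker genes and a sum of 3, just inside, numbered 0, 0, 2, 5 and 2, and those with a sum of 2, just outside, numbered 3, 1, 9, 13 and 2. No doublet caller was run, and the exclusions on Jchain, Cd3, C1q and mast cell genes applied, with overlap, to 8, 2, 1 and 74 of 282 candidates in PBS and that on Jchain to 36 of 193, 111 of 550, 252 of 1555 and 102 of 663 in the Decoy libraries. Across libraries 143 barcodes were shared, none of them among B cells.

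Some B cells carried RNA of further lineages. In PBS, 26 of 201 cells passed a bound on erythroid, haemoglobin, neutrophil, monocyte, progenitor, platelet or plasmacytoid genes, 22 of them on haemoglobin, and they held the UMIs that left 68.0% of the PBS total in the other 175 cells. In the Decoy libraries 4 of 138, 18 of 362, 56 of 1188 and 19 of 458 cells passed, 2, 11, 41 and 12 of them on monocyte genes, leaving 91.8%, 95.5%, 86.5% and 89.1% of UMIs. The erythroid markers summed to 26214 CPM in PBS and 246 to 5227 CPM in the Decoy libraries, the neutrophil markers to 34.3 CPM in PBS and 148 to 9781 CPM in the Decoy libraries and the monocyte markers to 36.5 CPM in PBS and 179.8 to 505 CPM in the Decoy libraries. T cell markers summed to 18.3 CPM in PBS and 14.2 to 24.4 CPM in the Decoy libraries, macrophage markers to 6.58 CPM in PBS and 23 to 95.1 CPM in the Decoy libraries, and NK cell markers to 0 CPM in PBS and 4.06 to 5.83 CPM in the Decoy libraries. Of 8 NK cell markers Ncr1, Klrb1c, Eomes and Klra8 were at 0 in all libraries, as were Ccl22 of dendritic cells and Tnfrsf17 of plasma cells. Plasmacytoid dendritic cell markers, several of which B cells share, summed to 1239 CPM in PBS and 2531 to 3030.5 CPM in the Decoy libraries, conventional dendritic cell markers to 9.5 CPM in PBS and 12.6 to 25.7 CPM in the Decoy libraries, plasma cell markers to 91.3 CPM in PBS and 109 to 138 CPM in the Decoy libraries, progenitor markers to 2.92 CPM in PBS and 20.9 to 379 CPM in the Decoy libraries and platelet markers to 8.77 CPM in PBS and 0.207 to 78.3 CPM in the Decoy libraries. The main results below are given for all B cells and again without the cells over those bounds ("restricted B cells"). The T cell, macrophage and plasma cell marker sums include the Cd3 genes, the C1q genes and Jchain. The selection rule held these genes low, so those sums were partly set in advance, unlike the erythroid, neutrophil and monocyte sums. The part of the remaining RNA of other cell types was not tested.

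Between Decoy and PBS, 775 of 10991 tested genes were called in all B cells (7.05%), 299 higher (2.72%) and 476 lower (4.33%), with edgeR's quasi-likelihood test at an adjusted p under 0.05. In the restricted B cells 467 of 10581 were called (4.41%), 217 higher (2.05%) and 250 lower (2.36%). Of these, 335 were called in both in the same direction, 43.2% of the first set and 71.7% of the second, and 23 genes called in all B cells had the opposite sign in the restricted cells. The counts of list members below stand beside these shares, and a list with 1 called member of about 20 is near them. The median log2 fold change over all tested genes was 0.03 in all B cells and 0.04 in the restricted cells. Lower genes were often genes of the mast-gene cells: 196 of the 250 lower genes (78.4%) were at a higher level in the PBS mast-gene cells than in the restricted PBS B cells, against 59.7% of all tested genes. For the higher genes it was 120 of 217 (55.3%). The part of mast-gene cell RNA in the lower calls was not tested.

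RNA of IgG constant genes was the largest immunoglobulin difference. Ighg2b, the IgG2b constant gene (ENSMUSG00000076613, chr12:113302965-113307933, minus strand, GRCm38), was at 18.3 CPM in PBS and 326, 336, 302 and 241 CPM in Decoy 2, 3, 5 and 6. PBS lay far below 4 Decoy libraries that were close to each other. Of all tested genes 66% had every Decoy library on one side of PBS, so that alone is common. Ighg2b rose in all B cells (log2 fold change 4.04 ± 0.30 (SE), edgeR adjusted p = 0.000537) and in the restricted cells (3.82, adjusted p = 2.7e-05). In the mast-gene cells its mean level was 0.0341 against 36.4, 7.44, 8.87 and 74.3 CPM.

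Ighg2b RNA was spread over many B cells and lay beside IgM and IgD RNA. Unthinned, it had a UMI in 8 of 201 PBS B cells (3.98%), against 96 of 138, 259 of 362, 757 of 1188 and 198 of 458 in the Decoy libraries (69.6%, 71.5%, 63.7% and 43.2%). Thinned to 2000 UMIs, the share was 2.53% in PBS against 37.7, 37.2, 36.6 and 23.2% in Decoy 2, 3, 5 and 6. In T cells thinned in the same way it was 0% in PBS against 0, 2.78, 2.44 and 3.37% in Decoy 2, 3, 5 and 6, and in macrophages 3.33% in PBS against 1.05, 4.94, 4.1 and 1.53% in Decoy 2, 3, 5 and 6. The thinned PBS cells were only 62 T cells and 30 macrophages, and 1 of the 30 macrophages had a UMI. T cells and macrophages, which do not make immunoglobulin, thus stayed below 5% in every library while Decoy B cells were at 23.2% or more. In T cells Ighg2b was at 0 CPM in PBS and 0.751, 5.64, 16.9 and 11.9 CPM in Decoy 2, 3, 5 and 6. The edgeR model of the difference did not call it against T cells (-3.83 ± 5.73 (SE)) or macrophages (2.98 ± 2.41 (SE)). The Decoy change of Ighg2b was thus not shown by that test to differ between the cell types. Of the Ighg2b-positive B cells, 96.9%, 99.2%, 99.9% and 99.5% in Decoy 2, 3, 5 and 6 also had a UMI of Ighm or Ighd. Ighd alone had a UMI in 94.9, 92, 91.6 and 91.3% of all B cells there, unthinned. A high overlap is thus common to B cells and is not particular to the Ighg2b-positive ones. Ighg2b exceeded the sum of Ighm and Ighd in only 3, 3, 7 and 2 Decoy cells, which held 7.92%, 5.24%, 1.77% and 3.29% of the Ighg2b UMIs.

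The other IgG genes were low. Ighg3 was at 2.82 CPM in PBS and 30.1, 34.6, 30.7 and 32.6 CPM in Decoy 2, 3, 5 and 6, with the 4 Decoy libraries close together and PBS resting on 4 UMIs (log2 fold change 3.50 ± 0.37 (SE), edgeR adjusted p = 0.00109). With 3 PBS UMIs in the restricted cells, the Decoy to PBS ratio was 10.4 (95% counting interval 3.55 to 50.6). Ighg2c had 3 UMIs in PBS, with a ratio of 32.8 (11.2 to 159), and its thinned share in B cells was 0% in PBS against 3.62, 14.2, 11 and 3.94% in Decoy 2, 3, 5 and 6. The share was 0% in PBS against 0, 6.94, 5.49 and 5.62% in Decoy 2, 3, 5 and 6 in T cells and 0% in PBS against 3.16, 13.9, 12.6 and 3.07% in Decoy 2, 3, 5 and 6 in macrophages. Another draw of the thinned UMIs gave 0% against 3.62, 11.1, 9.78 and 5.69% in B cells and 0% against 1.05, 11.4, 9.06 and 3.07% in macrophages. Shares of like size in macrophages mean that Ighg2c is not read as a difference of B cells here. The IgG constant genes resemble each other in sequence, and how the counting split their reads is not given in the sources used here.

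Of 11 tested genes in the list of immunoglobulin constant genes, 6 were called higher and none lower, with a median log2 fold change of 1.16, against 0.03 over all genes. In the restricted cells 4 were called higher, Ighg2b, Ighg2c (no PBS UMI, at least 19.1-fold higher), Ighg3 and the lambda light chain gene Iglc1 (1.16 in all and 0.91, adjusted p = 0.0361). The limit given above for Ighg2c, its like shares in macrophages, holds for these counts too. Other immunoglobulin RNA was also higher outside B cells in Decoy. In mast-gene cells Iglc1 was at 1.12 CPM in PBS against 1.53, 526, 13.3 and 35.5 CPM in Decoy 2, 3, 5 and 6. Ighm was at 2.19 against 5.67, 525, 88.7 and 230 CPM in them. The part of such RNA in the B cell levels was not tested. Ighm, the IgM heavy chain, was at 1168 CPM in PBS and 2004, 2311, 1869 and 2049 CPM in Decoy 2, 3, 5 and 6 (log2 fold change 0.82 ± 0.17 (SE), edgeR adjusted p = 0.0198), and missed the threshold in the restricted cells (0.54, adjusted p = 0.0795). Ighd, the IgD heavy chain, was at 641 CPM in PBS and 569, 447, 475 and 637 CPM in Decoy 2, 3, 5 and 6 (log2 fold change -0.27, adjusted p = 0.477), with PBS highest but by little. As a share of all heavy chain constant UMIs, Ighd was 34.9% in PBS against 19.2, 13.9, 17.1 and 21% in Decoy 2, 3, 5 and 6, PBS standing above all Decoy libraries (exact permutation p = 0.2, adjusted over 11 quantities 0.314). The share of Ighg2b among heavy chain UMIs was 0.997% against 11, 10.4, 10.8 and 7.96%, and that of lambda among light chain UMIs 28.4% against 39.9, 37.8, 35.2 and 35.5%. Igkc, the kappa chain, was at 5159 against 5825, 5738, 5723 and 7298 CPM (log2 fold change 0.25, adjusted p = 0.39).

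**Figure D2:**
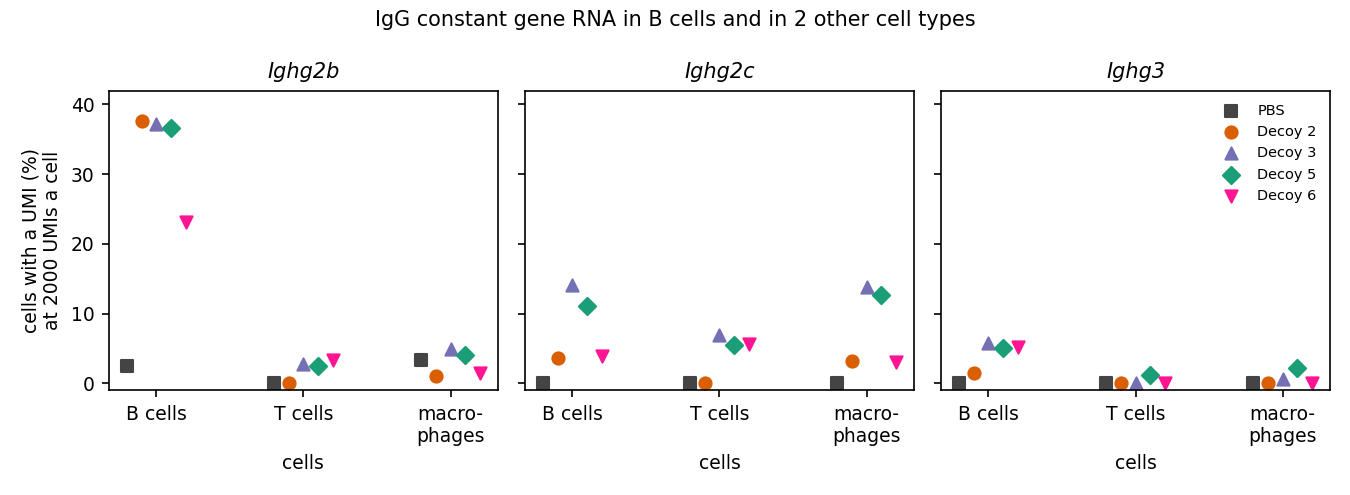
Percentage of B cells, T cells and macrophages with a UMI of Ighg2b, Ighg2c or Ighg3 after thinning every cell to 2000 UMIs, 1 point per library. Ighg2b is at 23.2% to 37.7% of Decoy B cells and at 4.94% or less in T cells and macrophages, while Ighg2c reaches 14.2% of B cells and 13.9% of macrophages in Decoy 3.

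Several inhibitory receptors of B cells were higher in Decoy. Of 15 tested members of the list of inhibitory receptors and phosphatases, 6 were called higher, against 2.72% of all tested genes, and none lower, with a median of 0.57. Fcgr2b, the inhibitory receptor for IgG complexes, was at 50.7 CPM in PBS and 164, 184, 168 and 145 CPM in Decoy 2, 3, 5 and 6, and all Decoy libraries lay above PBS (log2 fold change 1.71 ± 0.21 (SE), edgeR adjusted p = 0.00237). Fcrl5, an Fc receptor-like inhibitory receptor of marginal zone and memory B cells, was at 12.7 CPM in PBS and 83.9, 93.9, 75.3 and 70.8 CPM in Decoy 2, 3, 5 and 6, again without overlap (log2 fold change 2.67 ± 0.29 (SE), edgeR adjusted p = 0.00127). Cblb, a ubiquitin ligase that dampens receptor signalling, was at 25.4 CPM in PBS and 95.1, 92.9, 79.6 and 75.6 CPM in Decoy 2, 3, 5 and 6 (log2 fold change 1.75 ± 0.24 (SE), edgeR adjusted p = 0.00364). These and Fcrla were also called in the restricted cells, Fcgr2b with a log2 fold change of 1.67, Fcrl5 with 2.66 and Cblb at 31.7 against 97.7, 93.1, 89.6 and 80 CPM. Btla, another inhibitory receptor, was called lower there (-0.82, adjusted p = 0.0184). Cd22, a sialic acid-binding inhibitor of the antigen receptor, was at 123 against 213, 225, 234 and 219.7 CPM (log2 fold change 0.87, adjusted p = 0.0142) and missed the threshold in the restricted cells (0.65, adjusted p = 0.0697), as did Pirb. After thinning, the share of B cells with an Fcrl5 UMI was 4.04% in PBS against 15.9, 17.8, 15.4 and 11.4% in Decoy 2, 3, 5 and 6. No T cell had one, and in macrophages the share was 16.7% in PBS (5 of 30 cells) against 16.8, 20.7, 13.7 and 12.3% in Decoy 2, 3, 5 and 6.

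Of 24 tested members of the list of antigen receptor signalling, 5 were called higher and none lower (median 0.55), and 2 of the 5 in the restricted cells (median 0.32). These were Blnk, an adaptor behind the receptor, at 111 against 265, 234, 236 and 254 CPM (1.16 and 0.83 in all and restricted cells), and Vav2, an exchange factor, at 7.04 against 18.9, 26.4, 22.5 and 26.7 CPM (1.77 and 2.03). Pik3ap1, Lat2 and Cd38 were called only with all B cells. Pax5, the factor that maintains B cell identity, was at 139 against 217, 236, 195 and 224 CPM and did not pass (log2 fold change 0.64, adjusted p = 0.0561).

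Of 23 tested B lineage transcription factors, 4 were called higher and none lower (median 0.43). Pou2f2, which encodes OCT2, was at 278 CPM in PBS and 515, 569, 473 and 546 CPM in Decoy 2, 3, 5 and 6, with no overlap (log2 fold change 0.92 ± 0.18 (SE), edgeR adjusted p = 0.0169), and stayed higher in the restricted cells (0.71, adjusted p = 0.0255). Irf8, a factor of the B and myeloid lineages, was at 279 CPM in PBS and 544, 505, 468 and 468 CPM in Decoy 2, 3, 5 and 6 (log2 fold change 0.83 ± 0.17 (SE), edgeR adjusted p = 0.0224), and missed the threshold in the restricted cells (0.57, adjusted p = 0.0905). Tcf4 and Runx3 were also called only with all B cells. Klf2, which restrains activation and controls trafficking, was at 375 against 232, 179.6, 167 and 279 CPM in all B cells (log2 fold change -0.81, adjusted p = 0.0861) and fell in the restricted cells, where it was at 492 against 227, 178, 181 and 293 CPM (-1.17, adjusted p = 0.0108). In mast-gene cells Klf2 was at 5.3 against 2.06, 13, 48.8 and 6.69 CPM, far below B cells.

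Vpreb3, an endoplasmic reticulum protein of immature and transitional B cells, fell. Its level was 169.7 CPM in PBS and 86.7, 60.3, 56.3 and 77.9 CPM in Decoy 2, 3, 5 and 6, and no Decoy library reached PBS (log2 fold change -1.30 ± 0.23 (SE), edgeR adjusted p = 0.0101). The restricted cells gave 214 against 78.8, 61.2, 62.7 and 84.9 CPM (-1.60, adjusted p = 0.000442), and mast-gene cells held 0.205 against 0.0649, 0.811, 4.43 and 0.52 CPM. After thinning to 2000 UMIs, the share of B cells with a Vpreb3 UMI was 36.9% in PBS against 13, 10, 11.2 and 12.5% in Decoy 2, 3, 5 and 6, the widest gap among 23 shares compared (exact permutation p = 0.2, the smallest possible, adjusted 0.657). With mitochondrial UMIs held to 5% its call was lost (log2 fold change -0.76). Of 12 tested genes of immature and transitional cells, Vpreb3 was the only one called in all B cells (median -0.65). Among the restricted cells Vpreb3 and Myb were lower and Cd24a was higher (median -1.22). Cd93, the usual transitional marker, had 2 UMIs in PBS, with a ratio of 3.20 (0.865 to 26.7).

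Among follicular genes, Cd55 fell in both cell sets. Cd55, a regulator of complement, was at 174 CPM in PBS and 65, 46.1, 54.8 and 100.2 CPM in Decoy 2, 3, 5 and 6, with all Decoy libraries below PBS (log2 fold change -1.40 ± 0.33 (SE), edgeR adjusted p = 0.0355; restricted cells -1.66, adjusted p = 0.00959). The call was lost without Decoy 2 and without Decoy 5. Fcer2a, which encodes CD23, was at 137 against 127, 96.9, 94.3 and 139 CPM (log2 fold change -0.28, adjusted p = 0.526), with PBS inside the Decoy range. Of 10 tested follicular genes 1 was called higher, H2-Q7, and 1 lower, Cd55 (median -0.28), and in the restricted cells none was higher and 3 were lower, Cd55 and Klf2 among them (median -0.53). Fcmr, the receptor for IgM, chosen after its values were seen, was at 478 against 277, 199.8, 230.4 and 341 CPM in the restricted cells (-0.87, adjusted p = 0.0497).

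Of 19 tested marginal zone and B1 cell genes, 4 were called higher and none lower (median 0.82). Plac8, a cysteine-rich protein of innate-like B cells and myeloid cells, was at 465 CPM in PBS and 1528, 1371, 1989 and 1616 CPM in Decoy 2, 3, 5 and 6, well apart (log2 fold change 1.80 ± 0.23 (SE), edgeR adjusted p = 0.00263), and stayed higher in the restricted cells (1.46, adjusted p = 0.00133). Bhlhe41, a factor of B1 cells, had 4 UMIs in PBS and was at 2.82 against 13.3, 16, 15.5 and 16.7 CPM (log2 fold change 2.46, adjusted p = 0.0108), with a ratio of 7.56 (2.08 to 62.7) in the restricted cells. Cr2, which encodes CD21, was at 122 against 174, 147, 155 and 213 CPM (log2 fold change 0.49, adjusted p = 0.231) and Cd1d1 at 12 against 18.2, 13.8, 16.3 and 24.6 CPM (log2 fold change 0.58, adjusted p = 0.451), neither past the threshold. Cd9 was called only with all B cells.

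**Figure D3:**
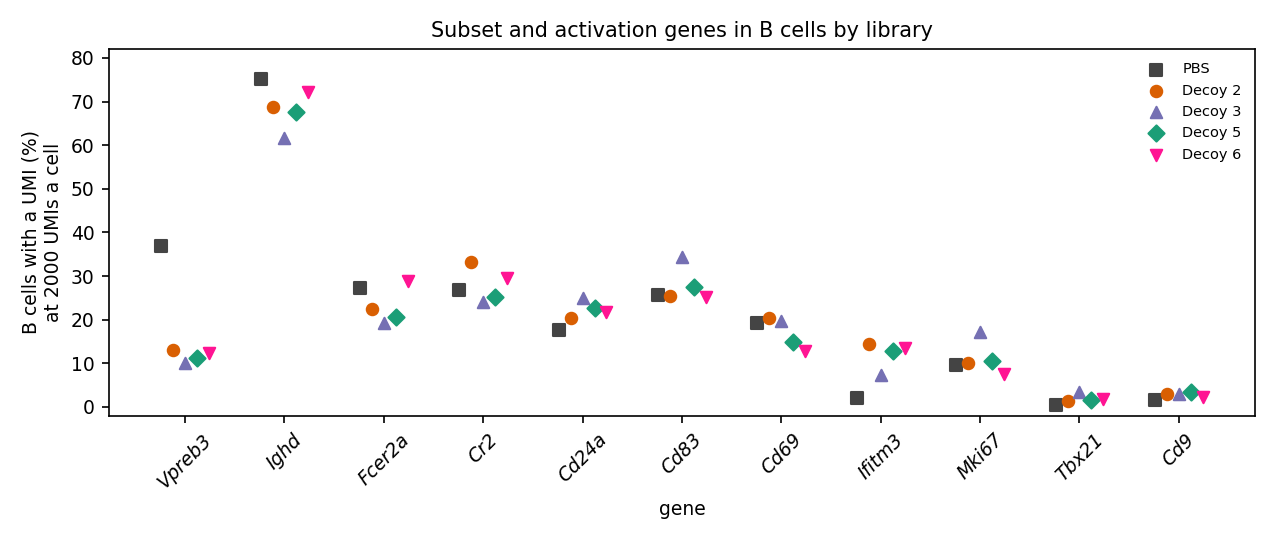
Percentage of B cells with a UMI of 11 subset and activation genes after thinning to 2000 UMIs, 1 point per library. Vpreb3 is at 36.9% in PBS and 10% to 13% in Decoy, Ifitm3 at 2.02% and 7.22% to 14.5%, whereas Fcer2a, Cr2, Cd69 and Mki67 overlap between PBS and Decoy.

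Of 19 tested genes of activation and co-stimulation, 1 was called higher, Cd44, and none lower, near the 2.72% and 4.33% of all tested genes (median 0.71), and Cd44 missed the threshold in the restricted cells (0.66, adjusted p = 0.309), where Cd24a passed. Cd86, a ligand for T cell help, was at 12.7 against 21.7, 20, 15.7 and 18.2 CPM (log2 fold change 0.53, adjusted p = 0.415). Cd69, an early activation marker, was at 64.1 against 87.4, 114, 74.3 and 61.5 CPM (log2 fold change 0.39, adjusted p = 0.517), with PBS inside the Decoy range, and Cd83 at 115 against 199, 201, 165 and 163 CPM (log2 fold change 0.65, adjusted p = 0.0798). Of 23 immediate early genes, Jund alone was called, a share near the 4.33% called lower among all tested genes, at 380.3 against 251, 247, 215 and 269 CPM (log2 fold change -0.63, adjusted p = 0.0479), and it also fell in the restricted cells (-0.83, adjusted p = 0.00939). Of 11 germinal centre genes edgeR called none in either set, with 5 at an unadjusted p under 0.05 in all B cells, and DESeq2 called 0 and limma 0.

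Of 25 tested genes of the TLR9 pathway and other Toll-like receptors, 1 was called, near the share of 2.72% called higher among all tested genes. It was Cnpy3, a chaperone of Toll-like receptors, at 21.1 CPM in PBS and 43.3, 50.1, 51.3 and 51.5 CPM in Decoy 2, 3, 5 and 6 (log2 fold change 1.23 ± 0.23 (SE), edgeR adjusted p = 0.0145; restricted cells 1.16, adjusted p = 0.024). The list's median was 0.54, and 0.26 in the restricted cells. Tlr9, the receptor of the CpG part, had 1 UMI in PBS and a ratio of 4.38 (0.763 to 175), so no difference was detectable at this depth. Of 25 genes of the NF-kB pathway, 3 were called higher and none lower (median 0.40). Traf1, an adaptor of TNF receptors, was at 23.2 CPM in PBS and 122, 89.3, 76.3 and 60.8 CPM in Decoy 2, 3, 5 and 6 (log2 fold change 1.87 ± 0.41 (SE), edgeR adjusted p = 0.0272; restricted cells 1.87, adjusted p = 0.023). Bcl2a1b, a survival protein of the BCL2 family, was at 50.7 against 189, 160.4, 137 and 123 CPM (1.57 and 1.15 in all and restricted cells), but has near-identical copies such as Bcl2a1d, so its level is uncertain.

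Of 12 tested memory and age-associated B cell genes, 3 were called higher and none lower (median 1.24). Fcrl5 is given above. Cxcr3, a chemokine receptor of T-bet-positive B cells, was at 4.93 CPM in PBS and 29.4, 36.6, 38.1 and 28.2 CPM in Decoy 2, 3, 5 and 6, with PBS resting on 7 UMIs (log2 fold change 2.77 ± 0.40 (SE), edgeR adjusted p = 0.00443), and in the restricted cells, with 3 PBS UMIs, the ratio was 11.6 (3.97 to 56.5). Tbx21, which encodes T-bet, was at 2.11 against 25.9, 20.2, 14.2 and 11.3 CPM on 3 PBS UMIs and did not pass in all B cells, with a ratio of 7.07 (2.4 to 34.4). It was called in the restricted cells, with 1 PBS UMI and a ratio of 15.4 (2.75 to 611). Zeb2 was called only with all B cells. Of 21 plasmablast and secretory genes 1 was called, Edem1, near the 2.72% of all tested genes, and none in the restricted cells.

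Of 63 tested members of the type I interferon list, 11 were called higher and 2 lower in all B cells, against 2.72% and 4.33% of all tested genes (median 0.44), and in the restricted cells 6 were higher and none lower (median 0.31). The 6 were Ifi27l2a, Zbp1, Trim30d, Phf11b, Ly6a and Ifitm3, and all were among the 11. Ifitm3, which blocks virus entry, was at 28.2 CPM in PBS and 159, 99.7, 244 and 244 CPM in Decoy 2, 3, 5 and 6, with no overlap (log2 fold change 2.74 ± 0.56 (SE), edgeR adjusted p = 0.02), and at 26.6 against 72, 56.6, 76.2 and 92.1 CPM in the restricted cells (1.48, adjusted p = 0.0266). Its thinned share was 2.02% in PBS against 14.5, 7.22, 12.8 and 13.6% in Decoy 2, 3, 5 and 6. Ly6a, which encodes Sca-1, was at 501 against 1064, 958, 1137 and 1173 CPM (1.11 and 0.86 in all and restricted cells), and Ifi27l2a at 299 against 837, 716, 907 and 1122 CPM (1.58 and 1.18). Zbp1, a nucleic acid sensor, was at 28.9 against 72, 65.5, 71.4 and 66.1 CPM (1.25 and 1.08).

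The 2 lower members, Isg15, a ubiquitin-like protein, and Rsad2, the antiviral enzyme viperin, rested on few PBS cells. Isg15 was at 219.7 CPM in PBS and 77.6, 38.8, 57.1 and 43.8 CPM in Decoy 2, 3, 5 and 6 (log2 fold change -2.06 ± 0.28 (SE), edgeR adjusted p = 0.00304). Of its PBS UMIs, 290 lay in the 26 cells with RNA of further lineages (662 CPM) and 22 in the other 175 (23.6 CPM). Without them Isg15 was at 22.5 against 77.3, 39.6, 44.6 and 21.4 CPM, with the sign turned (0.92, adjusted p = 0.466). Rsad2 had 196 PBS UMIs in the 26 cells and 3 in the rest, and went from -4.33 to a ratio of 0.671 (0.216 to 3.37). Irf7, a factor of the interferon loop, was at 11.3 against 17.5, 12, 18.4 and 24.9 CPM (log2 fold change 0.69, adjusted p = 0.426). Of 28 interferon gamma genes, 3 were called higher (median 0.47) and 1, Fgl2, in the restricted cells.

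Promoters of the called interferon genes were searched in the 250 bases before the start for a pair of GAAA half-sites with 2 bases of any kind between them, on both strands, a core of the interferon-stimulated response element. Of the 13 called members, 9 had a promoter in the RefSeq table, and 6 of these held a match, against 22 of 50 tested members of the list with a promoter (44.0%) and 936 of 27025 genes (3.46%). Phf11d, Lgals3bp and Ifitm3 had no match in this window. The windows below, from RefSeq on GRCm38.p6, show 2 members higher in both cell sets and the 1 with the turned sign, each on its gene's minus strand, with the match in capitals. Where the match lies on the other strand it reads as TTTC half-sites, and the run in Isg15 is 3 overlapping matches.
Phf11b, chr14:59341336-59341415: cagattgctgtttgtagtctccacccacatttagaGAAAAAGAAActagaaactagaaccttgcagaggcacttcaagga
Trim30d, chr7:104507850-104507925: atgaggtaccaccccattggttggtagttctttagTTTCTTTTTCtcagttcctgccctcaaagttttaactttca
Isg15, chr4:156200852-156200931: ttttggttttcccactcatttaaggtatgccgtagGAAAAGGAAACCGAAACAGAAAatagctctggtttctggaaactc

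The nearest match began 50 bases before the start in Phf11b and 41 in Trim30d. Phf11b, a nuclear factor, was at 47.2 CPM in PBS and 159, 119, 124 and 143 CPM in Decoy 2, 3, 5 and 6 (log2 fold change 1.51 ± 0.23 (SE), edgeR adjusted p = 0.0056; restricted cells 1.14, adjusted p = 0.0154). Trim30d, a member of the TRIM family, was at 9.15 CPM in PBS and 39.1, 28.6, 31 and 34.4 CPM in Decoy 2, 3, 5 and 6 (log2 fold change 1.82 ± 0.32 (SE), edgeR adjusted p = 0.0113; restricted cells 1.37, adjusted p = 0.0423). In both, the Decoy libraries lay together above PBS. A match describes letters in this window only.

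**Figure D4:**
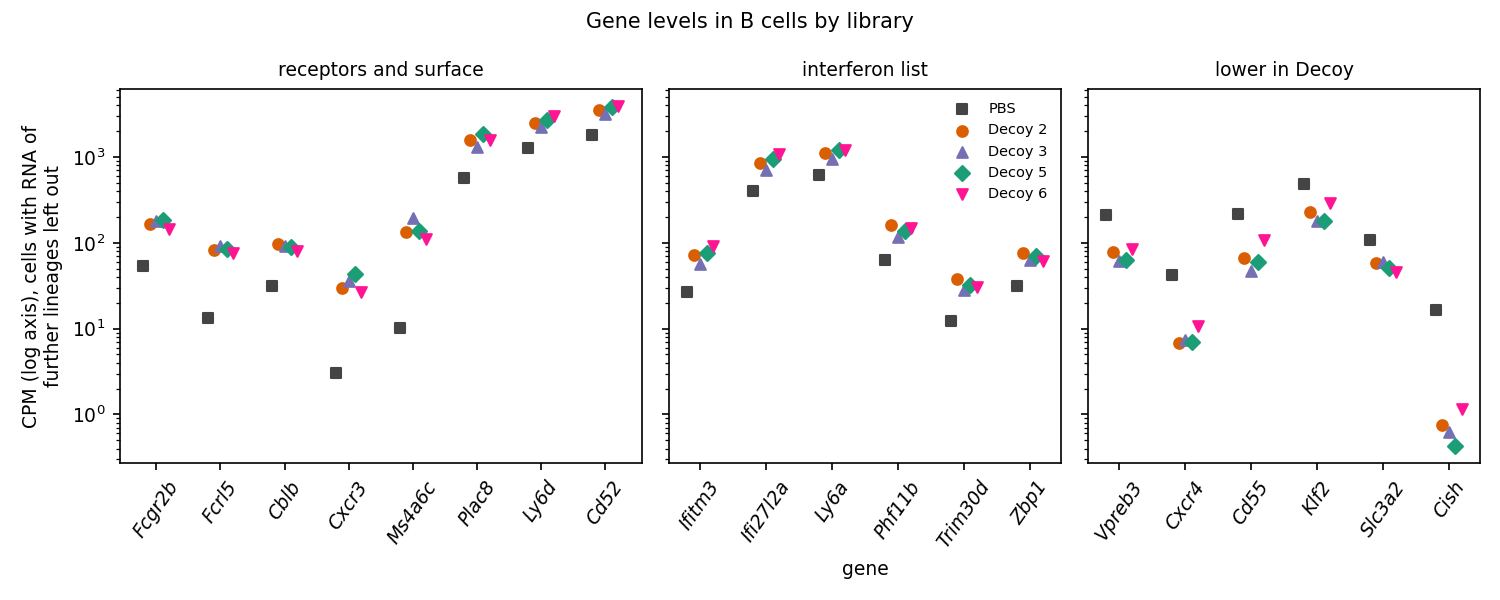
CPM (log axis) in the restricted B cells of each library, for receptor and surface genes, interferon list genes and genes lower in Decoy. The Decoy libraries lie on one side of PBS for each gene drawn, above in the first 2 panels and below in the third.

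Of 25 tested genes of the STAT3 pathway and its targets, 1 was called higher and 4 lower (median 0.11), and in the restricted cells 1 higher and 1 lower (median -0.07). Stat3 itself was at 63.4 CPM in PBS and 53.1, 66.9, 60.7 and 55.4 CPM in Decoy 2, 3, 5 and 6, with PBS inside the Decoy range (log2 fold change -0.09, adjusted p = 0.836). Socs3, a feedback inhibitor induced by STAT3, was at 21.1 CPM in PBS and 11.2, 19.4, 14.1 and 14.4 CPM in Decoy 2, 3, 5 and 6, below PBS in every Decoy library but not past the threshold (log2 fold change -0.48, adjusted p = 0.427). Cish, a STAT5-induced feedback inhibitor of cytokine signalling, was at 28.2 CPM in PBS and 0.699, 0.601, 0.939 and 1.79 CPM in Decoy 2, 3, 5 and 6 (log2 fold change -4.77 ± 0.49 (SE), edgeR adjusted p = 0.00102), and at 16.4 against 0.758, 0.622, 0.427 and 1.16 CPM in the restricted cells (-4.63, adjusted p = 0.00216). The mast-gene cells held more of it, 49 against 37.9, 48.9, 4.43 and 48.5 CPM. Ptpn1, a phosphatase of JAK kinases, was at 108 against 183, 209.8, 186 and 186 CPM (0.82 and 0.68 in all and restricted cells). Pim1, Myc and Bcl2l1 were called lower in all B cells but not in the restricted cells, where Pim1 was at 56.2 against 50.8, 76.5, 50.1 and 51.3 CPM (0.04, adjusted p = 0.972), Myc at -0.90 and Bcl2l1 at -0.56. In PBS, 137 of 192 Pim1 UMIs and 26 of 30 Bcl2l1 UMIs lay in the 26 cells with RNA of further lineages.

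Of 22 tested survival receptors and BCL2 family genes, 2 were called higher and 4 lower (median 0.43), and in the restricted cells 1 was higher, Bcl2, and 1 lower. Bcl2, the anti-apoptotic protein of resting lymphocytes, was at 83.1 CPM in PBS and 162, 152, 147 and 164 CPM in Decoy 2, 3, 5 and 6, without overlap (log2 fold change 0.91 ± 0.17 (SE), edgeR adjusted p = 0.0152; restricted cells 0.91, adjusted p = 0.0162). Tnfrsf13c, the BAFF receptor, was at 163 against 177, 156, 170.4 and 211 CPM (log2 fold change 0.13, adjusted p = 0.736), with PBS inside the Decoy range. Tnfrsf13b, which encodes TACI, was at 87.3 against 177, 176, 175 and 156 CPM (log2 fold change 0.97, adjusted p = 0.0118; restricted cells 0.71, adjusted p = 0.0521).

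Of 23 tested homing and chemokine receptor genes, 4 were called higher and 1 lower (median 0.41). Cxcr4, the receptor for CXCL12 that holds immature cells in the marrow, was at 35.9 CPM in PBS and 9.09, 7.81, 11.3 and 12 CPM in Decoy 2, 3, 5 and 6 and fell without overlap (log2 fold change -1.81 ± 0.28 (SE), edgeR adjusted p = 0.00644). The restricted cells had 41.9 against 6.82, 7.47, 6.91 and 10.7 CPM (-2.41, adjusted p = 0.000804). With mitochondrial UMIs held to 5% its call was lost. Mast-gene cells held 0.249 against 0.368, 3.24, 93.1 and 1.47 CPM. Itgal, the alpha chain of LFA-1, was at 19.7 against 51, 54.1, 41.5 and 52.8 CPM (1.32 and 1.07 in all and restricted cells). Cxcr5, the follicle homing receptor, was at 40.8 against 60.8, 56.9, 48.7 and 63.8 CPM (log2 fold change 0.48, adjusted p = 0.247).

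Antigen presentation by MHC class II did not pass the test. None of 17 class II genes was called by edgeR in all B cells (median 0.08, 2 at an unadjusted p under 0.05, 0 called by DESeq2 and 0 by limma), and 1 in the restricted cells, March1, lower. Cd74, the invariant chain, was at 8719 against 9692, 7306, 7468 and 9985 CPM (log2 fold change -0.02, adjusted p = 0.975) and H2-Ab1 at 1978 against 2532, 2171, 2089 and 2539.6 CPM (log2 fold change 0.24, adjusted p = 0.426), PBS lying inside the Decoy range for Cd74 only. Of 21 class I and immunoproteasome genes, 6 were called higher and none lower (median 0.45), and in the restricted cells Psmb8 and Psme1. Psmb8, an immunoproteasome subunit, was at 389 CPM in PBS and 667, 709, 803 and 792 CPM in Decoy 2, 3, 5 and 6 (log2 fold change 0.93 ± 0.18 (SE), edgeR adjusted p = 0.0167; restricted cells 0.72, adjusted p = 0.035).

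More cell cycle genes passed the test in the restricted cells than in all B cells. Of 24 S phase genes 1 was called higher in all B cells (Gins2, median 0.50) and 10 in the restricted cells (median 1.27), against 2.72% and 2.05% of all tested genes called higher. Of 24 G2 and M phase genes the numbers were 1 (Nusap1, median 0.44) and 5 (median 0.74). Gins2, a replication factor, was at 7.16 against 30.3, 31.9, 32.9 and 26.4 CPM in the restricted cells (2.10, adjusted p = 0.0094). Pclaf, a PCNA-binding protein chosen after its values were seen, was at 67.6 CPM in PBS and 347, 575, 534 and 316 CPM in Decoy 2, 3, 5 and 6 (log2 fold change 2.72 ± 0.40 (SE), edgeR adjusted p = 0.00443; restricted cells 3.90, adjusted p = 0.000244). Mki67, a marker of cycling cells, was at 239 against 181, 306, 231 and 193 CPM (log2 fold change -0.06, adjusted p = 0.924), and had a UMI in 9.6% against 10.1, 17.2, 10.5 and 7.66% of thinned cells. In the restricted cells its PBS level was lower, at 132 CPM, and Mki67 was not called. The thinned shares of Mki67 and of G2 and M phase genes given here are those of all B cells. The share of thinned B cells with at least 2 UMIs of G2 and M phase genes was 30.3% in PBS against 31.2, 44.2, 34.7 and 27.8% in Decoy 2, 3, 5 and 6 (exact permutation p = 0.6, adjusted 0.812), PBS lying inside the Decoy range. Without Decoy 3 the difference from PBS was 0.898 points, against 4.14 with all libraries.

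Of 20 metabolism genes, none was called higher and 3 lower (median -0.27), Slc3a2, Tfrc and Myc. Slc3a2, the heavy chain of amino acid transporters, was at 145 CPM in PBS and 56.6, 64.1, 53.5 and 52 CPM in Decoy 2, 3, 5 and 6 (log2 fold change -1.36 ± 0.17 (SE), edgeR adjusted p = 0.00234; restricted cells -1.02, adjusted p = 0.0101) and at 305 against 333, 344, 213 and 342 CPM in mast-gene cells. Tfrc, the transferrin receptor, went from -2.49 to -1.11, adjusted p = 0.118 in the restricted cells. Of 22 respiratory chain subunits on short transcripts, 8 were called higher and none lower (median 0.62), and 12 in the restricted cells (median 0.69). Ndufb1-ps, of complex I, was at 259 CPM in PBS and 705, 588, 578 and 529 CPM in Decoy 2, 3, 5 and 6 (log2 fold change 1.21 ± 0.20 (SE), edgeR adjusted p = 0.00896), and at 328 against 723, 651, 745 and 567 CPM in mast-gene cells. The ribosomal protein gene Rpl41, also on a short transcript, was at 4217 against 8527, 7695, 8012 and 7651 CPM in B cells (log2 fold change 0.92, adjusted p = 0.00369) and at 6137 against 10287, 9734, 6127 and 9481 CPM in mast-gene cells. PBS was the lowest library for both genes in B cells, and in mast-gene cells for Ndufb1-ps but not for Rpl41, where Decoy 5 (13 cells) was slightly lower. The median exon length was 3393 bases for genes called higher, 4086.5 for genes called lower and 4340 for all tested genes, and the part of transcript length or of the PBS library itself was not tested.

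The 8 higher genes with the largest change and a mean of at least 20 CPM were Chil3, Lyz2, Ighg2c, Ms4a6c, Cdh17, Ighg2b, Ighg3 and Lst1. Of these, Ighg2c had shares of like size in macrophages, as given above. Ms4a6c, a membrane protein of the MS4A family, was at 8.45 CPM in PBS and 130.0, 201, 182 and 129 CPM in Decoy 2, 3, 5 and 6, far apart (log2 fold change 4.26 ± 0.43 (SE), edgeR adjusted p = 0.00102; restricted cells 3.82, adjusted p = 0.00044). It had a thinned share of 0% in PBS against 12.3, 22.5, 16.9 and 9.19% in Decoy 2, 3, 5 and 6 in B cells, 6.45% in PBS against 4.84, 5.56, 7.93 and 4.49% in Decoy 2, 3, 5 and 6 in T cells and 43.3% in PBS against 77.9, 76.2, 77.8 and 73% in Decoy 2, 3, 5 and 6 in macrophages. Cdh17, a cadherin of B cells and gut epithelium, had 3 PBS UMIs and a ratio of 17.0 (5.80 to 82.7). Chil3, Lyz2 and Lst1 are myeloid genes and lost their calls in the restricted cells. Lyz2 was at 2.82 against 242, 60.1, 462 and 502 CPM in all B cells and 4.09 against 18.2, 27.2, 50 and 31.6 CPM in the restricted cells. Among genes chosen after their values were seen, Pld4, an endosomal exonuclease that degrades single-stranded nucleic acids, was at 36.6 CPM in PBS and 165, 158, 164 and 191 CPM in Decoy 2, 3, 5 and 6 (log2 fold change 2.21 ± 0.21 (SE), edgeR adjusted p = 0.000795; restricted cells 2.06, adjusted p = 0.000179). Ly6d was at 1013 against 2349, 2229.6, 2384 and 2796 CPM, Cd52 at 1425 against 3511, 3228, 3471 and 3819.6 CPM and Id2 at 11.3 against 58, 83.9, 54.7 and 51.3 CPM, and all rose in both sets (1.27 and 1.05, 1.30 and 1.02 and 2.46 and 2.53).

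The 8 lower genes with the largest change were Xist, Bex4, Tnni3, Slc4a1, Gmpr, Il1rl1, Egfl7 and Alas2. Slc4a1 and Alas2 are erythroid genes and did not pass the filter on low counts in the restricted cells. The other 6 were called in both sets and were higher in PBS mast-gene cells than in PBS B cells. Il1rl1, the IL-33 receptor of mast cells, was at 103 CPM in PBS and 16.8, 1.8, 2.31 and 3.85 CPM in Decoy 2, 3, 5 and 6 in B cells and 502 against 509, 677, 111 and 619 CPM in mast-gene cells. Bex4 was at 306 against 21.7, 1.2, 5.71 and 4.87 CPM in B cells and 1204 against 918, 776, 0 and 909 CPM in mast-gene cells. The mast cell markers summed to 503 CPM in PBS and 8.7 to 104 CPM in the Decoy libraries in B cells. Xist is itself 1 of these markers, at 312 CPM in PBS and 31.2, 1.66, 0 and 8.42 CPM in Decoy 2, 3, 5 and 6. Cpa3, Ms4a2 and Fcer1a are also in the sum and were held low by the selection rule. The part of mast-gene cell RNA in these lower genes was not tested.

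**Figure D5:**
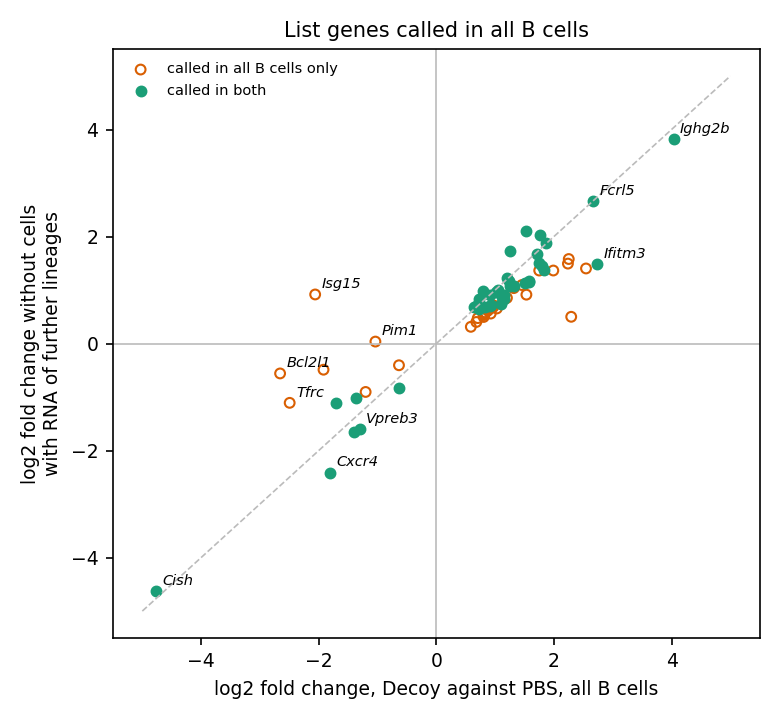
Log2 fold changes of 77 list genes called in all B cells with more than 3 PBS UMIs in both sets (horizontal axis) against those in the restricted B cells (vertical axis), with the line of equality dashed. Filled points (41) were called in both; Isg15 and Pim1 are the 2 points whose sign turns.

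Decoy differences in B cells were set against those in T cells (464 cells) and macrophages (1644 cells) of the same libraries, with edgeR models of the difference. The PBS library held only 64 of these T cells and 44 of these macrophages, so PBS levels in both rest on few cells. T cells had at least 2 UMIs of the Cd3 genes and a B marker sum under 2, and macrophages at least 10 UMIs per 10000 of the C1q genes and a sum under 3. In the models with restricted B cells only the B cells were restricted. The T cells and macrophages kept their cells with RNA of further lineages, so the 2 sides were not treated alike. Against T cells 12 of 10127 genes differed (0.118%), 2 with a larger log2 change in B cells (0.0197%) and 10 with a smaller one (0.0987%). Against macrophages 65 of 12122 differed (0.536%), 17 larger (0.14%) and 48 smaller (0.396%). For the restricted cells the counts were 24 of 9890 (0.243%; 0.0101% larger and 0.233% smaller in B cells) and 216 of 11977 (1.8%; 1.14% and 0.668%). T cells alone gave 52 of 9229 called genes (0.563%), 24 higher (0.26%) and 28 lower (0.303%). Macrophages gave 291 of 11510 (2.53%), 131 higher (1.14%) and 160 lower (1.39%). Pclaf changed more in B cells than in T cells (2.21 ± 0.33 (SE), edgeR adjusted p = 0.0428) and than in macrophages (3.59 ± 0.44 (SE), edgeR adjusted p = 0.0133). Ms4a6c, Plac8 and Pld4 changed more in B cells than in macrophages, by 4.12 ± 0.41 (SE), edgeR adjusted p = 0.00884 for Ms4a6c. Plac8 was at 465 against 1528, 1371, 1989 and 1616 CPM in B cells, and in macrophages at 2175 against 2521, 1466, 1413 and 1501 CPM (difference 2.18 ± 0.38 (SE), edgeR adjusted p = 0.0492). For Pld4 the difference was 1.70 ± 0.20 (SE), edgeR adjusted p = 0.0117. None of the 3 was called against T cells, with edgeR adjusted p = 0.138 for Ms4a6c, 0.367 for Plac8 and 0.401 for Pld4. On simulated counts the model against T cells called 22 of 100 genes changed by 1 on the log2 scale and 80 of 100 changed by 2. A missing call against T cells, with differences of 1.35 for both Plac8 and Pld4, therefore does not show an equal change. Isg15 differed from macrophages by -3.01 ± 0.51 (SE), edgeR adjusted p = 0.0476, and by 0.14, adjusted p = 0.964 in the restricted cells.

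Several B cell differences were not shown to be particular to B cells. Ifi27l2a, Ly6a and Zbp1 differed from T cells by -0.45, -0.03 and 0.24 on the log2 scale, none past the threshold. Ifi27l2a was at 246 CPM in PBS T cells and at 778, 882, 1129 and 1232 CPM in Decoy T cells. Ndufb1-ps differed from T cells by 0.07 ± 0.21 (SE), edgeR adjusted p = 0.971, with T cells at 268 against 731, 555, 561 and 523 CPM. Cxcr4 differed from T cells by -3.01, adjusted p = 0.0187 in the restricted B cells, and by -2.37 ± 0.52 (SE), edgeR adjusted p = 0.189 in all. In macrophages Cxcr4 was also lower in Decoy, at 24.8 CPM in PBS, from only 44 cells, against 1.89, 8.59, 9.75 and 8.37 CPM in Decoy 2, 3, 5 and 6. The difference of Cxcr4 from macrophages was -0.19 in all B cells and -0.60 in the restricted cells, neither past the threshold. Cish differed from T cells by -3.51 ± 0.54 (SE), edgeR adjusted p = 0.043 in all B cells and by -3.39, adjusted p = 0.0621 in the restricted cells.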

How the data were processed

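The deposited matrices held counts, that is, UMIs per gene and barcode, not normalized, per the file headers. Cell Ranger 5.0.0 is named in the matrix headers, whereas the submitters' processing notes list Cell Ranger 3.1, Seurat 4, DESeq2 and mm10. Gene positions came from GENCODE on GRCm38. UMIs of B cells were summed per library. In R 4.3.3, edgeR 4.0.16 removed low genes (filterByExpr), applied TMM and ran its quasi-likelihood F test, two-sided (3 residual degrees of freedom, Benjamini-Hochberg adjusted p under 0.05 for a call). Levels are CPM scaled by TMM, and CPM by the total for Xist, Y-linked genes, mast-gene cells and marker sums. B cells held 1368637 to 14059457 UMIs per library. Shares were tested by exact permutation over libraries. A gene with 0 to 3 PBS UMIs is given by its ratio with an exact counting interval, or against 3 counts. On simulated counts for the B cell comparison (10645 genes), 84 of 108 genes changed by 1 on the log2 scale and 92 of 92 changed by 2 were called, with 11 of 10445 unchanged genes. The spread and gene levels set in the simulation are not given here. In the measured B cells edgeR's common dispersion, its measure of spread between libraries, was 0.0244. These rates hold for the simulated counts only and may be better than for the measured ones. The same limit applies to the simulation against T cells.

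The members, lists and tests were chosen with earlier results of these data known. Named were 28 fixed genes, the 8 largest changes in each direction that averaged 20 CPM or more with all Decoy libraries on 1 side, up to 4 called members of each of 25 lists (or the 2 most abundant) and up to 4 called differences from T cells and from macrophages in each direction. Other names were chosen after their values were seen. Alternatives were DESeq2 1.42.0, limma 3.58.1 (voom), other scaling, filters, cell rules and each Decoy library left out. Leaving out cells with RNA of further lineages (at least 10 UMIs of a lineage's genes, or 50 of haemoglobin, per 10000) was added after seeing the data. It was applied to B cells only, not to T cells or macrophages. Some items are not reported here.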

Additional observations from a re-analysis of the deposited data

Results flagged for a closer look

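In 12 of 154 groups of 4 Decoy libraries, 1 library lay far from the other 3 by Dixon's test. Chance gives about 1 in 20 such groups. In B cells these were Alas2 at 11.8 CPM, Hbb-bs at 2557 CPM, Slc4a1 at 12.6 CPM, Igkc at 7298 CPM and Tnfrsf13b at 156 CPM in Decoy 6. They were Il1rl1 at 16.8 CPM and Rps29 at 11151 CPM in Decoy 2, and Bbc3 at 2.53 CPM and Tcf4 at 169 CPM in Decoy 5. In Decoy 3 they were the thinned shares of Cd5 (0.278%) and Tbx21 (3.33%) and the share of Ighm among heavy chain UMIs (71.7%).

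Among the genes named here, the Decoy difference itself differed between B cells and another cell type by edgeR's test in 18 cases, of 12 genes against T cells and 65 against macrophages in all. Against T cells the log2 change in B cells was larger by 2.21 for Pclaf and 1.68 for Slc25a4. It differed by -5.86 for Lat, -5.15 for Klk8, -4.79 for Prkcq, -4.21 for Apoe and -3.51 for Cish. Against macrophages it was larger by 5.95 for Tmem108, 4.12 for Ms4a6c, 3.59 for Pclaf, 2.77 for H2afx, 2.18 for Plac8 and 1.70 for Pld4. It differed by -5.68 for Slc7a8, -5.24 for Tbxas1, -4.64 for Cd200r4, -4.44 for Pgap1 and -3.01 for Isg15.

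Some of these rest on very low levels in 1 cell type. Tmem108 was at 0 to 0.348 CPM in Decoy macrophages, Apoe at 5.38 CPM in PBS T cells and Pgap1 at 2.48 CPM in PBS macrophages. Several negative differences rest on low levels in Decoy B cells. Lat was at 81.8 CPM in PBS B cells and 1.08 to 7.59 CPM in Decoy B cells, Klk8 at 38.6 and 0.838 to 1.52 CPM. Prkcq was at 21.2 and 0.213 to 1.52 CPM, Slc7a8 at 59.6 and 0.215 to 3.46 CPM and Tbxas1 at 25.7 and 0.787 to 2.77 CPM. The part of mast-gene cell RNA in the PBS levels was not tested.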

How the results depend on the processing

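The count of 775 called genes was 1209 with no filter on low counts (488 higher), 226 without any cell with a UMI of other lineages (97 higher), 371 without the 5% of cells with most UMIs (130 higher) and 467 without cells with RNA of further lineages (217 higher); leaving out each Decoy library gave 604 to 741. The 12 differences from T cells became 237 with no filter, 24 in the restricted cells and 3 to 26 with a Decoy library left out (3 without Decoy 5, 26 without Decoy 6). The 65 differences from macrophages became 443, 216 and 46 to 198 (198 without Decoy 2, 99 without Decoy 3). In the restricted cells Isg15 turned to 0.92 and Pim1 to 0.037. Differences in thinned shares, in percentage points, turned for Ighd to 0.18 (4000 UMIs) and 0.40 (not thinned), for S1pr3 to -0.59 (4000 UMIs) and for Cd86 to -0.081 (stricter markers), -0.43 (restricted cells) and -0.77 (4000 UMIs). The difference in cells with G2 and M phase UMIs, 4.14 points, was 19.0 at a mitochondrial share of at most 5% and 19.8 without thinning, and 0.898 to 6.36 with a Decoy library left out (0.898 without Decoy 3). The difference in the share of kept cells, 15.8 points, was 10.5 to 20.8 with a Decoy library left out (10.5 without Decoy 5). The cause was not tested. Of 89 named called genes, 79 kept their call with DESeq2, 66 with voom and 88 with DESeq2 size factors in edgeR, 53 of 87 in the restricted cells, 44 of 89 without the 5% of cells with most UMIs and 38 of 88 without any cell with a UMI of other lineages. No paired analysis was possible because PBS had 1 library and shared no replicate number with Decoy. With 1 PBS library, a difference between the libraries and a difference between the treatments cannot be told apart, and the PBS cells' lower depth limits genes with few PBS UMIs.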

Other observations

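B cells with a UMI of Fcer2a after thinning, split from those without, differed in other subset genes. Cxcr5 was at 92.6 against 66.0 CPM in PBS, and at 96.8 against 65.4, 87.0 against 65.3, 77.6 against 57.4 and 90.9 against 50.8 CPM in Decoy 2, 3, 5 and 6. Ighd was also higher in them in all 5 libraries, at 1093 against 969 CPM in PBS. Klf2 differed in direction between libraries, at 639 against 660 CPM in PBS and 226 against 243 CPM in Decoy 2 but 319 against 242 CPM in Decoy 3, and Ccr7 was lower in Decoy 2 only, at 32.3 against 56.1 CPM. In Decoy 2 the cells with an Fcer2a UMI numbered 31 and those without 107, so low levels there, such as that of Ccr7, rest on few UMIs. In PBS they numbered 54 and 144, and Ifitm3, at 9.26 against 10.4 CPM, was too low there to order. Ifitm3 was lower in the cells with an Fcer2a UMI in the Decoy libraries, at 16.1 against 112, 21.7 against 68.7, 83.7 against 123 and 49.2 against 163 CPM. Plac8 was lower too, at 454 against 632 CPM in PBS and 1353 against 1784 CPM in Decoy 5. These are descriptions over cells of the same library, without a test.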
